A study of Mus musculus with 12 samples.

Results

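In the obstructed kidney cortex of wild-type mice, most tested genes of the proximal tubule, thick ascending limb and distal tubule fell, and transcripts of injured tubule cells, of the immune system and of matrix rose. The comparison set the cortex of the obstructed kidney (UUO) against that of the contralateral kidney (CL) of the same mouse. Its members were the 6 wild-type libraries of the 12 in the series, 3 from UUO and 3 from CL kidneys, chosen by their labels alone. The mice were male C57BL/6N animals (the strain label reads C57BL/6), 6 to 7 weeks old and Wildtype for Acot12, and the kidneys were taken on day 7 after surgery. UUO and CL kidneys with the same replicate number were taken as the kidneys of a single mouse. The other 6 libraries came from Acot12-/- mice, whose mutant allele was passed through the germline and is present throughout the body, and entered only where that is said. No sham-operated or unoperated kidney was analysed here, so the CL kidney, which takes over the filtration of its obstructed partner, was the only reference.

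In unilateral ureteral obstruction a single ureter is tied off, urine backs up and the rising pressure stretches and injures the tubules above it. The kidney is known to answer with loss of tubule function, leukocyte entry and spread of matrix-producing fibroblasts, and the model is used for that reason to study renal fibrosis. The proximal tubule, which makes up most of the cortex, takes back most of what is filtered and burns fatty acids to do so. The segments after it, namely the thick ascending limb, the distal convoluted and connecting tubule and the collecting duct, adjust salt, calcium, acid and water.

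Each library held an FPKM value (sequenced fragments per kilobase of a transcript, divided by a scale factor of the library) for 23183 gene symbols. A single fragment on a 1-kb transcript was worth 0.0791 to 0.0893 FPKM in CL and 0.0491 to 0.0532 FPKM in UUO libraries, which puts the scale factor at 11.2M to 12.6M fragments in CL and 18.8M to 20.4M in UUO libraries. The fragments summed over genes, each taken at its longest GENCODE transcript, came to an approximate depth of 18.8M to 19.8M per CL and 20.7M to 22.8M per UUO library, so the values were not scaled to these sums. Upper quartiles were 11.0 to 11.4 FPKM in all 6 libraries. Pearson correlations of log2(FPKM + 1) were 0.985 to 0.989 among CL, 0.982 to 0.992 among UUO and 0.871 to 0.918 between CL and UUO libraries. The first principal component, with 87.1% of the variance, separated the groups (CL −55.9 to −42.7, UUO 42.0 to 57.4). On it CL replicate 2 and UUO replicate 3 lay nearest to the other group, and both recur below. In a sum over bulk tissue, fewer cells of a type and less RNA per cell cannot be told apart.

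Of 12872 genes tested with limma on log2(FPKM + 1), 8412 (65.4%) were called at an adjusted p under 0.05. Of all genes tested 32.0% rose in UUO kidneys (4119) and 33.4% fell (4293). Counts in each gene list below are to be read against these shares. Groups did not overlap, with every UUO above every CL library, for 35.4% of genes and, the other way round, for 36.3%. With so many genes called, the size of a change tells more than the call: 8.87% of genes were called and at least 2-fold higher, 11.5% at least 2-fold lower, 1.58% (203) at least 4-fold higher and 2.47% (318) at least 4-fold lower. At least 16-fold changes were found in 17 genes that rose (0.132%) and 14 that fell (0.109%). Of the 8412 called genes, 99.98% changed in the direction of the call in mouse 1, 99.96% in mouse 2 and 99.88% in mouse 3. The calls were made from these same libraries, so such agreement follows largely from the calling and is no separate evidence. Fold changes here are differences on the log2(FPKM + 1) scale and understate the change of genes at low FPKM. A signed value alone in brackets behind a gene, or behind its FPKM values, is this log2 fold change.

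The scale on which kidneys are compared matters for the balance of rises and falls. CL libraries held 758534 FPKM over the tested genes on average and UUO libraries 493515. When every library was scaled to the same total, the median of all genes moved from −0.0038 to 0.52, and 81.9% of the calls were rises in place of 49.0%. Relative to that shift, the medians of the 44 gene lists described here moved by at most 0.14. A single factor per library moves all genes nearly alike, so this small figure follows from the scaling and supports no list result. Taken by themselves, the medians of 7 lists changed sign. Median-ratio size factors were 0.994 to 1.01 and left the deposited scale nearly as it was.

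**Figure D1:**
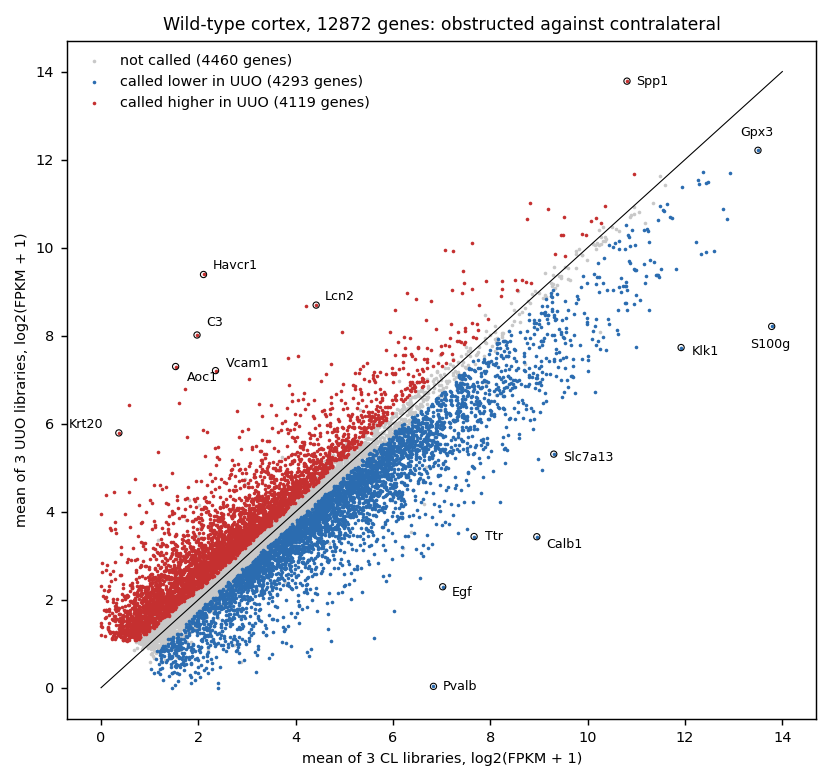
Mean log2(FPKM + 1) of the 3 CL libraries (horizontal) against that of the 3 UUO libraries (vertical), 1 point per tested gene, red where called higher, blue where called lower and grey where not called, with the line of equality. Havcr1, C3 and Aoc1 sit far above the line and Pvalb, Calb1 and S100g far below it, while Spp1 is the highest point of the UUO axis.

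The largest rise was that of Havcr1, which encodes kidney injury molecule 1, a receptor that injured proximal tubule cells put on their surface (chromosome 11, 46735080 to 46779578, GRCm38, plus strand). Havcr1 had 3.56, 4.48 and 1.87 FPKM in CL and 755, 657 and 597 FPKM in UUO libraries (log2 fold change 7.33, SE 0.23, adjusted p = 7.98e-06). All UUO libraries were far above all CL libraries, and mouse 1 had the highest UUO value. C3, the central complement component (chromosome 17, 57203970 to 57228136, minus strand), had 2.57, 4.62 and 1.58 FPKM in CL and 269.7, 295 and 208 FPKM in UUO libraries (log2 fold change 6.10, SE 0.27, adjusted p = 1.95e-05). Aoc1, a diamine oxidase that breaks down polyamines and histamine, had 2.45, 2.08 and 1.14 FPKM in CL and 168, 151 and 149.9 FPKM in UUO libraries (log2 fold change 5.79, SE 0.17, adjusted p = 6.91e-06). Its UUO values lay close together. Vcam1, an adhesion molecule that leukocytes bind and that injured tubule cells also make, had 4.1, 4.23 and 3.99 FPKM in CL and 151, 141 and 147 FPKM in UUO libraries (log2 fold change 4.85, SE 0.07, adjusted p = 3.35e-07), and the libraries of each group lay close together. Hspb1, a small heat shock protein, had 16.2, 17.3 and 19.4 FPKM in CL and 377, 418 and 424 FPKM in UUO libraries (log2 fold change 4.45, SE 0.10, adjusted p = 1.53e-06).

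The other genes among the 15 largest rises were Sprr2f (5.80), Krt20 (5.37), Ubd (5.21), Serpina10 (4.99), Lcn2 (4.77), Cxcl1 (4.39), Gc (4.33), Il1f6 (4.21), Stra6 (4.20) and Cd44 (4.19). Several of them were unequal among CL kidneys before any comparison. Lcn2, an iron-binding lipocalin used as a marker of tubule injury, had 15.8, 41.8 and 3.57 FPKM in CL and 316, 417 and 506 FPKM in UUO libraries, so that CL replicates 2 and 3 lay far apart. Gc, the vitamin D binding protein of plasma, had 1.46, 15 and 5.09 FPKM in CL and 89.3, 166 and 128 FPKM in UUO libraries. Serpina10, a plasma serpin, had 1.79, 3.76 and 0.516 FPKM in CL and 90.8, 102 and 67.8 FPKM in UUO libraries. Ubd, a ubiquitin-like protein induced by interferon and tumor necrosis factor, had 2.01, 4.16 and 0.692 FPKM in CL and 116, 119.5 and 93.2 FPKM in UUO libraries. In Lcn2, Gc, Serpina10 and Ubd alike, CL replicate 2 was the highest CL library. That it stayed below each UUO library was a condition for entering this ranking.

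The largest fall was that of Pvalb, a calcium-binding protein of the early distal convoluted tubule (chromosome 15, 78191114 to 78206400, minus strand). Pvalb had 127, 119 and 92 FPKM in CL libraries and was listed at 0 in UUO replicates 1 and 2 and at 0.065 in replicate 3 (log2 fold change −6.79, SE 0.13, adjusted p = 8.47e-07). Calb1, a calcium-binding protein of the distal convoluted and connecting tubule, had 527, 447 and 512 FPKM in CL and 7.89, 7.25 and 14.2 FPKM in UUO libraries (log2 fold change −5.58, SE 0.23, adjusted p = 1.91e-05). S100g, a calcium-binding protein of the same segments, was the most abundant tested transcript of CL cortex with 13110, 16132 and 12994 FPKM and had 257, 296 and 332 in UUO libraries (log2 fold change −5.57, SE 0.14, adjusted p = 3.80e-06). Egf, epidermal growth factor, made by the thick ascending limb and early distal tubule, had 173, 83.6 and 130.4 FPKM in CL and 2.24, 1.85 and 7.62 FPKM in UUO libraries (log2 fold change −4.85, SE 0.44, adjusted p = 1.08e-04). Thus 4 distal genes led the falls, in a ranking that only genes without overlap between groups could enter.

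The other genes among the 15 largest falls were Ttr, a carrier of thyroid hormone (−4.69), Gm6300 (−4.69), Gpx6 (−4.59), Slc7a13 (−4.42), Slc22a22 (−4.32), Ugt3a1 (−4.31), Akr1c14 (−4.26), Acsm3 (−4.06) and Slc22a7 (−3.95), besides the tissue kallikrein Klk1 (−4.19) and the protease inhibitor Wfdc15b (−4.17). Ttr had 209.6, 209.7 and 187 FPKM in CL and 1.95, 6.39 and 21.1 FPKM in UUO libraries, so that the UUO libraries lay far apart from each other. Klk1, which releases kinins in the connecting tubule, had 4408, 4208 and 3005 FPKM in CL and 261, 200.5 and 172 FPKM in UUO libraries. In Ttr, Gm6300, Gpx6, Slc7a13, Slc22a22, Ugt3a1, Akr1c14, Acsm3 and Slc22a7 UUO replicate 3 kept the most transcript, and in Klk1 it kept the least.

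**Figure D2:**
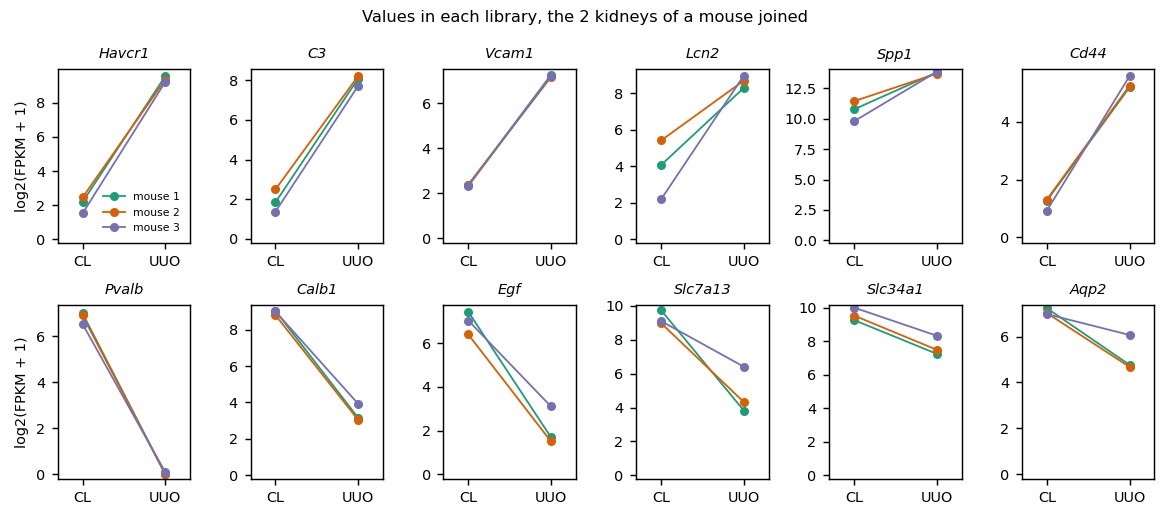
log2(FPKM + 1) of 12 genes in CL and UUO libraries, with the kidneys of each mouse joined by a line and mice told apart by color. The lines of Havcr1, C3, Vcam1, Lcn2, Spp1 and Cd44 rise in each mouse and those of Pvalb, Calb1, Egf, Slc7a13, Slc34a1 and Aqp2 fall in each.

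Promoters of a few of these genes hold letters that match binding motifs of factors known from inflammation, and they are shown so that a reader can see where. Most genes whose windows were examined held no such match, and the printed windows were picked because they held a match. They do not show that matches are more common among genes that rose. Each line gives the 250 bases before a RefSeq transcript start on the gene's own strand (GRCm38.p6), with motif matches in capitals. Cxcl1 (chr5:90890995-90891244, plus strand) and Ubd (chr17:37193642-37193891, plus strand) hold the letters GGGANTTTC, a motif of NF-kappaB. Sprr2f (chr3:92364937-92365186, plus strand) holds TGANTCA, the motif of AP-1. S100g (chrX:162964600-162964849, minus strand), which fell, also holds the NF-kappaB letters.
Cxcl1: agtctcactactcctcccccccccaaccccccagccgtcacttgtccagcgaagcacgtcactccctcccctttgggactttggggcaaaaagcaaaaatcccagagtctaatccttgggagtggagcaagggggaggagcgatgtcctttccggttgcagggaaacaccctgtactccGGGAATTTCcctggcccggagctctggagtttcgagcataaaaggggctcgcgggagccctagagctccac
Ubd: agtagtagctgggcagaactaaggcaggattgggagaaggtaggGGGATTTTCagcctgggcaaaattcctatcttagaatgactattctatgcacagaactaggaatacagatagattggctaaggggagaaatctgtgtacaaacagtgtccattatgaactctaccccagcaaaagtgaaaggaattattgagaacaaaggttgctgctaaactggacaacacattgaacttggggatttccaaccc
Sprr2f: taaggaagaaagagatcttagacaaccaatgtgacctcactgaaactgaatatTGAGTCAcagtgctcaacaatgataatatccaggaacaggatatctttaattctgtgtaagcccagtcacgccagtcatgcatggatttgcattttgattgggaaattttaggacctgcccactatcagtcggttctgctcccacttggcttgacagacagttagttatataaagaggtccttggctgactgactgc
S100g: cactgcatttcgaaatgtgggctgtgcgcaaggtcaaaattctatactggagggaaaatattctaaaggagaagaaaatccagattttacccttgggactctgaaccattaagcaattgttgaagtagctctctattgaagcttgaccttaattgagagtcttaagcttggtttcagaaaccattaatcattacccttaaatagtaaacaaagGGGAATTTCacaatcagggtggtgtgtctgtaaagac

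The first base of the match lay 71 bases before the start in Cxcl1, 206 in Ubd, 197 in Sprr2f and 37 in S100g. Aoc1, whose window is not printed, held the AP-1 letters 131 bases before its start. Matches were sought on both strands. Of 32851 windows of 250 bases in the promoter table, 0.941% held the NF-kappaB letters and 6.75% those of AP-1. A match is a description of letters and no proof of a site. The promoter table covered 146 of the 203 genes called at least 4-fold higher and 244 of the 318 called at least 4-fold lower, which is under 80% of each, so that a comparison of motif shares between them is void. Havcr1, C3, Lcn2, Krt20, Cd44, Hspb1, Gc and Stra6, which rose, held no match to AP-1, NF-kappaB, HNF4 (CAAAGTCCA) or E2F (TTTCCCGC). The same was true of Pvalb, Egf, Wfdc15b, Klk1, Acsm3, Akr1c14, Gpx6, Ugt3a1 and Slc22a22, which fell. Vcam1, Serpina10, Il1f6, Calb1, Ttr, Gm6300, Slc7a13 and Slc22a7 had no window among those examined gene by gene.

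Of 34 tested genes of proximal tubule transport 29 fell and none rose, 13 of them by at least 4-fold, with a median log2 fold change of −1.77 against −0.0038 over all genes. Slc34a1, the main phosphate transporter of the brush border, had 619.8, 747 and 1039 FPKM in CL and 153, 181 and 324 FPKM in UUO libraries (log2 fold change −1.91, SE 0.30, adjusted p = 0.00117). Lrp2, which encodes the endocytic receptor megalin, had 118, 97.4 and 123 FPKM in CL and 18.5, 18.8 and 24.3 FPKM in UUO libraries (log2 fold change −2.40, SE 0.14, adjusted p = 2.97e-05). The list's largest fall was that of Slco1a1, an organic anion transporter, with 133, 99 and 247 FPKM in CL and 4, 7.84 and 19.3 FPKM in UUO libraries (−3.95). All 3 genes were lower in each UUO than in each CL library. The organic anion transporters Slc22a6 (−2.78) and Slc22a8 (−3.03), the urate transporter Slc22a12 (−2.03) and the amino acid transporter Slc6a19 (−2.63) fell as well. List members given by a fold change alone are examples picked after their values were seen, unless the rule for named genes covers them.

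The 5 transport genes that were not called were Slc26a1 (−0.77), Slc5a2 (−0.75), Amn (−0.31), Slc13a1 (−0.22) and Slc7a8 (−0.12). With the replicate block Slc26a1 and Amn were called lower (adjusted p = 0.00143 and 0.0177), which made 31 of 34. Slc5a2, the glucose transporter SGLT2 of the early proximal tubule, had 15.9, 40.8 and 68 FPKM in CL and 21.5, 21.6 and 19.2 FPKM in UUO libraries: the CL kidneys were far apart and the UUO kidneys close together, within the CL range (SE of the log2 fold change 0.45, adjusted p = 0.179). Slc7a8, a basolateral amino acid exchanger, had 11.6, 16.8 and 21.7 FPKM in CL and 13.6, 14 and 17.1 FPKM in UUO libraries (adjusted p = 0.621). Amn is the membrane partner of the receptor cubilin, whose gene Cubn fell (−1.39); the difference between them was not tested.

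All 15 tested genes of the late proximal tubule (S3) fell, 10 of them by at least 4-fold (median −2.46). With libraries scaled to equal totals 10 of the 15 were called lower and none higher. Slc7a13, an S3 amino acid transporter, had 848, 500.01 and 545 FPKM in CL and 13.1, 19 and 83.7 FPKM in UUO libraries (log2 fold change −4.42, SE 0.62, adjusted p = 6.50e-04). Slc22a7, an organic anion transporter, had 164, 86.6 and 131 FPKM in CL and 3.27, 2.92 and 29.5 FPKM in UUO libraries (log2 fold change −3.95, SE 0.75, adjusted p = 0.00276). Slc5a10, a sugar transporter, had 54.3, 48.6 and 65.8 FPKM in CL and 19.3, 22.5 and 39.3 FPKM in UUO libraries (log2 fold change −1.08, SE 0.25, adjusted p = 0.00705). Napsa, an aspartic protease, had 1378, 994 and 1005 FPKM in CL and 406, 646 and 959.8 FPKM in UUO libraries (log2 fold change −0.82, SE 0.30, adjusted p = 0.0461). In all 15 genes UUO replicate 3 was the highest UUO library, against 43.8% of all tested genes. The median change within mice 1, 2 and 3 was −3.34, −2.64 and −1.67. The call of Napsa is lost with the replicate block (adjusted p = 0.0634) and without CL replicate 1 (adjusted p = 0.143), CL replicate 2 (0.0663), CL replicate 3 (0.0727), UUO replicate 1 (0.104) or UUO replicate 2 (0.0949).

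Of 14 tested brush border peptidases 13 fell (median −1.07), but 8 were called lower and 1 higher under scaling to equal totals. Mep1a and Mep1b encode the subunits of meprin, a secreted and membrane-bound metalloprotease. Mep1a had 916, 604 and 736 FPKM in CL and 151, 167 and 225 FPKM in UUO libraries (−2.05) and Mep1b 187, 93.3 and 141 FPKM in CL and 3.12, 4.84 and 28.6 FPKM in UUO libraries (−3.93, SE 0.69). Mme, neprilysin, had 43.8, 28.4 and 27.1 FPKM in CL and 21.3, 19.3 and 19.1 FPKM in UUO libraries (−0.67). Anpep, aminopeptidase N, had 33.9, 23.8 and 40.4 FPKM in CL and 13.4, 12.6 and 21.7 FPKM in UUO libraries (adjusted p = 0.00925).

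Of 20 tested genes of the thick ascending limb 17 fell, 6 of them by at least 4-fold (median −1.32). Slc12a1, the furosemide-sensitive cotransporter, had 303, 128 and 178 FPKM in CL and 28.4, 24.2 and 39.5 FPKM in UUO libraries (log2 fold change −2.62, SE 0.32, adjusted p = 3.24e-04). Kcnj1, the potassium channel that returns potassium to the lumen, had 168, 110.2 and 82.3 FPKM in CL and 28.8, 21.1 and 31.9 FPKM in UUO libraries (log2 fold change −2.06, SE 0.26, adjusted p = 4.34e-04). Umod, uromodulin, the most abundant protein of normal urine, had 1985, 1099 and 949 FPKM in CL and 425, 305 and 836 FPKM in UUO libraries (log2 fold change −1.42, SE 0.41, adjusted p = 0.0177), and UUO replicate 3 lay close below the lowest CL library. The call of Umod is lost without CL replicate 1 (adjusted p = 0.059), UUO replicate 1 (0.0542) or UUO replicate 2 (0.0554). CL replicate 1 was the highest CL library in 19 of these 20 genes. The claudins Cldn16 (−0.27) and Cldn19 (−0.0097) of the paracellular calcium and magnesium pathway and the transcription factor Irx2 (10.5, 6.84 and 4.97 FPKM in CL and 6.49, 7.69 and 10.2 FPKM in UUO libraries, 0.15) were not called. A related factor, Irx1, fell (−1.17).

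Of 20 tested genes of the distal convoluted and connecting tubule 17 fell and none rose (median −1.57). Besides Pvalb, Calb1, S100g and Klk1, Slc12a3, the thiazide-sensitive cotransporter, had 101, 126 and 79.3 FPKM in CL and 32.7, 28.4 and 26.9 FPKM in UUO libraries (log2 fold change −1.74, SE 0.17, adjusted p = 1.35e-04). Kl, klotho, the coreceptor for the phosphate hormone FGF23, fell (−2.72), as did the sodium-calcium exchanger Slc8a1 (−2.19). Of the channels through which calcium and magnesium enter these cells, Trpv5 had 4.32, 6.17 and 4.02 FPKM in CL and 5.73, 6.05 and 11.1 FPKM in UUO libraries (0.53, adjusted p = 0.095) and Trpm6 had a log2 fold change of −0.26; neither was called. The summed FPKM of the list was 26291 in CL and 2609.9 in UUO libraries on average, the largest difference among the tubule segments, of which S100g made up the greater part.

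Medians of the collecting duct lists were nearer to 0. Of 19 tested principal cell genes 9 fell and 2 rose (median −0.59), but 6 fell and 5 rose under scaling to equal totals. Aqp2, the water channel that vasopressin moves to the apical membrane, had 149.97, 129 and 125 FPKM in CL and 26.2, 24.6 and 66.2 FPKM in UUO libraries (log2 fold change −1.91, SE 0.35, adjusted p = 0.00227). Avpr2, the vasopressin receptor, had 12.6, 10.2 and 12.7 FPKM in CL and 2.45, 2.89 and 9.71 FPKM in UUO libraries (log2 fold change −1.28, SE 0.40, adjusted p = 0.0239). In both genes UUO replicate 3 was well above the other UUO libraries, and the call of Avpr2 is lost without CL replicate 1 (adjusted p = 0.07), CL replicate 3 (0.065), UUO replicate 1 (0.0745) or UUO replicate 2 (0.0788). Aqp3, the basolateral water channel, showed no such gap, with 60.9, 47.5 and 53.6 FPKM in CL and 17, 16 and 14.5 FPKM in UUO libraries (log2 fold change −1.70, SE 0.11, adjusted p = 3.92e-05). The subunits of the sodium channel ENaC were Scnn1a (−1.40) and Scnn1g (−0.82), which fell, and Scnn1b (−0.52), which was not called. The call of Scnn1g is lost without CL replicate 1 (adjusted p = 0.0563), CL replicate 2 (0.051), UUO replicate 1 (0.0566) or UUO replicate 2 (0.0584). The genes that rose were St6gal1, a sialyltransferase (3.21, 3.51 and 3.17 FPKM in CL and 16.6, 14.1 and 16.3 FPKM in UUO libraries, 1.95), and Npnt, a matrix protein of tubule basement membrane (0.58). Within mice the medians were −0.61, −1.13 and −0.05.

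Of 21 tested genes of intercalated cells, which secrete acid or bicarbonate, 15 fell and 2 rose (median −0.84). Atp6v1g3, a subunit of their proton pump, had 96.9, 108 and 63.2 FPKM in CL and 16.1, 15.7 and 14.5 FPKM in UUO libraries (log2 fold change −2.42, SE 0.19, adjusted p = 6.06e-05). Slc4a1, the chloride-bicarbonate exchanger of the type A cell, had 9.68, 7.43 and 6.76 FPKM in CL and 0.857, 0.631 and 0.779 FPKM in UUO libraries (log2 fold change −2.34, SE 0.14, adjusted p = 3.07e-05). Slc26a4, pendrin, of the type B cell, had 32.1, 32.4 and 17.9 FPKM in CL and 9.31, 8.81 and 6.42 FPKM in UUO libraries (log2 fold change −1.60, SE 0.24, adjusted p = 9.12e-04). Foxi1, the factor that these cells depend on, was not called (0.16). Kit, a receptor tyrosine kinase, rose, with 2.08, 2.22 and 1.61 FPKM in CL and 4.85, 3.5 and 3.84 FPKM in UUO libraries (0.77).

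Of 20 tested podocyte genes 7 rose and 5 fell, shares near those of all genes (32.0% and 33.4%), and the median was −0.0060. Under scaling to equal totals 12 rose and 4 fell (median 0.51, against 0.52 over all genes). Nphs1, nephrin, of the slit diaphragm, had 3.4, 3.86 and 2.2 FPKM in CL and 2.4, 2.11 and 2.29 FPKM in UUO libraries (−0.33, adjusted p = 0.11). Podxl, the main sialoprotein of podocytes, had 35.7, 33.2 and 28.5 FPKM in CL and 32.7, 29.8 and 23.7 FPKM in UUO libraries (−0.17, adjusted p = 0.296). The collagen IV genes of the mature glomerular basement membrane, Col4a3 (31.3, 26.8 and 28.1 FPKM in CL and 9.37, 10.4 and 10.5 FPKM in UUO libraries, −1.42) and Col4a4 (−1.15), fell, and Kirrel, of the slit diaphragm, rose (1.28, 1.26 and 1.18 FPKM in CL and 4.28, 4.22 and 4.91 FPKM in UUO libraries, 1.29). Tcf21, which podocytes share with interstitial fibroblasts, rose as well (1.23).

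Of 21 tested endothelial genes 3 rose and 6 fell (14.3% and 28.6%, against 32.0% and 33.4% of all genes). The median of −0.22 became 0.30 under scaling to equal totals, against 0.52 over all genes. Pecam1 had 14.7, 13 and 19.9 FPKM in CL and 17.5, 15.3 and 19.8 FPKM in UUO libraries (0.15, adjusted p = 0.433). Kdr, the main VEGF receptor, had 3.67, 2.29 and 6.83 FPKM in CL and 2.13, 1.65 and 2.2 FPKM in UUO libraries (−0.73, adjusted p = 0.0594), and it is called with the replicate block (adjusted p = 0.0214). Emcn, a sialomucin of capillaries and veins, fell (62.9, 52 and 91.8 FPKM in CL and 34.9, 30.4 and 37.5 FPKM in UUO libraries, −0.95), and Cdh5, the cadherin of endothelial junctions, rose (5.41, 5.03 and 8.04 FPKM in CL and 9.04, 8.17 and 9.74 FPKM in UUO libraries, 0.50), a call that is lost without CL replicate 1 (adjusted p = 0.0873), CL replicate 2 (0.0779), UUO replicate 1 (0.0705) or UUO replicate 3 (0.0759). In 18 of the 21 genes CL replicate 3 was the highest CL library and in 15 UUO replicate 3 was the highest UUO library. In the renin-angiotensin list 2 of 8 tested genes rose and 4 fell (median −0.46). Scaling to equal totals turned this to 4 that rose and 2 that fell (median 0.13, against 0.52 over all genes). Ren1, renin, rose, with 16.3, 11.2 and 14 FPKM in CL and 36.5, 27.2 and 35.2 FPKM in UUO libraries (log2 fold change 1.20, SE 0.16, adjusted p = 5.08e-04). Ace fell (46.2, 35.8 and 50.9 FPKM in CL and 13.9, 18.1 and 33.3 FPKM in UUO libraries, −1.07), and Agt, the precursor, was not called (45.9, 37.7 and 30.5 FPKM in CL and 32, 33.2 and 49.5 FPKM in UUO libraries).

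Of 32 tested injured tubule genes 29 rose, 20 of them by at least 4-fold, and none fell (median 2.53). Spp1, osteopontin, was the most abundant tested transcript of UUO cortex and had 1736, 2761 and 878 FPKM in CL and 14246, 13274 and 14734 FPKM in UUO libraries (log2 fold change 3.12, SE 0.37, adjusted p = 3.12e-04). Sox9, a transcription factor of repairing tubule cells (3.13), Cd44, a hyaluronan receptor (1.41, 1.47 and 0.896 FPKM in CL and 36, 37.4 and 47.4 FPKM in UUO libraries, 4.19), and Clu, the secreted chaperone clusterin (2.87), rose. Keratins of simple epithelium rose to an unlike extent, from Krt7 (0.70) over Krt8 (1.76), Krt18 (2.65) and Krt19 (4.01) to Krt20 (0.264, 0.476 and 0.126 FPKM in CL and 35.2, 72.1 and 55.7 FPKM in UUO libraries, 5.37). The call of Krt7 is lost without CL replicate 1 (adjusted p = 0.0709), UUO replicate 1 (0.0593), UUO replicate 2 (0.0592) or UUO replicate 3 (0.0647). Mmp7, a protease made by injured tubule, was listed at 0 in the 3 CL libraries and had 15.4, 7.85 and 20.2 FPKM in UUO libraries. Prom1 (0.12), Pdgfd (0.40) and Ltbr (39.2, 54.6 and 53.7 FPKM in CL and 44.4, 47.3 and 54.7 FPKM in UUO libraries, −0.00069) were not called. In CL kidneys replicate 2 was the highest library for 24 of the 32 genes, against 33.4% of all tested genes.

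Transcription regulators of the tubule split. Of 25 tested 14 fell and 7 rose (median −0.76), but 9 fell and 9 rose under scaling to equal totals (median −0.15). Hnf4a, the receptor that maintains proximal tubule genes, had 152, 163 and 159 FPKM in CL and 74, 77.6 and 59.3 FPKM in UUO libraries (log2 fold change −1.17, SE 0.11, adjusted p = 1.43e-04). Ppara, the fatty acid receptor, had 9.68, 11 and 10.7 FPKM in CL and 5.07, 7.93 and 4.27 FPKM in UUO libraries (−0.80), and Klf15 fell furthest (31.7, 26.3 and 34.4 FPKM in CL and 6.3, 7.98 and 8.12 FPKM in UUO libraries, −1.91). Pax8 (0.90) and Pax2 (0.69), factors of kidney development, rose, and Elf3, an epithelial factor of injury, rose most (11.9, 22.8 and 10.8 FPKM in CL and 71.2, 52.7 and 66.7 FPKM in UUO libraries, 2.06).

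**Figure D3:**
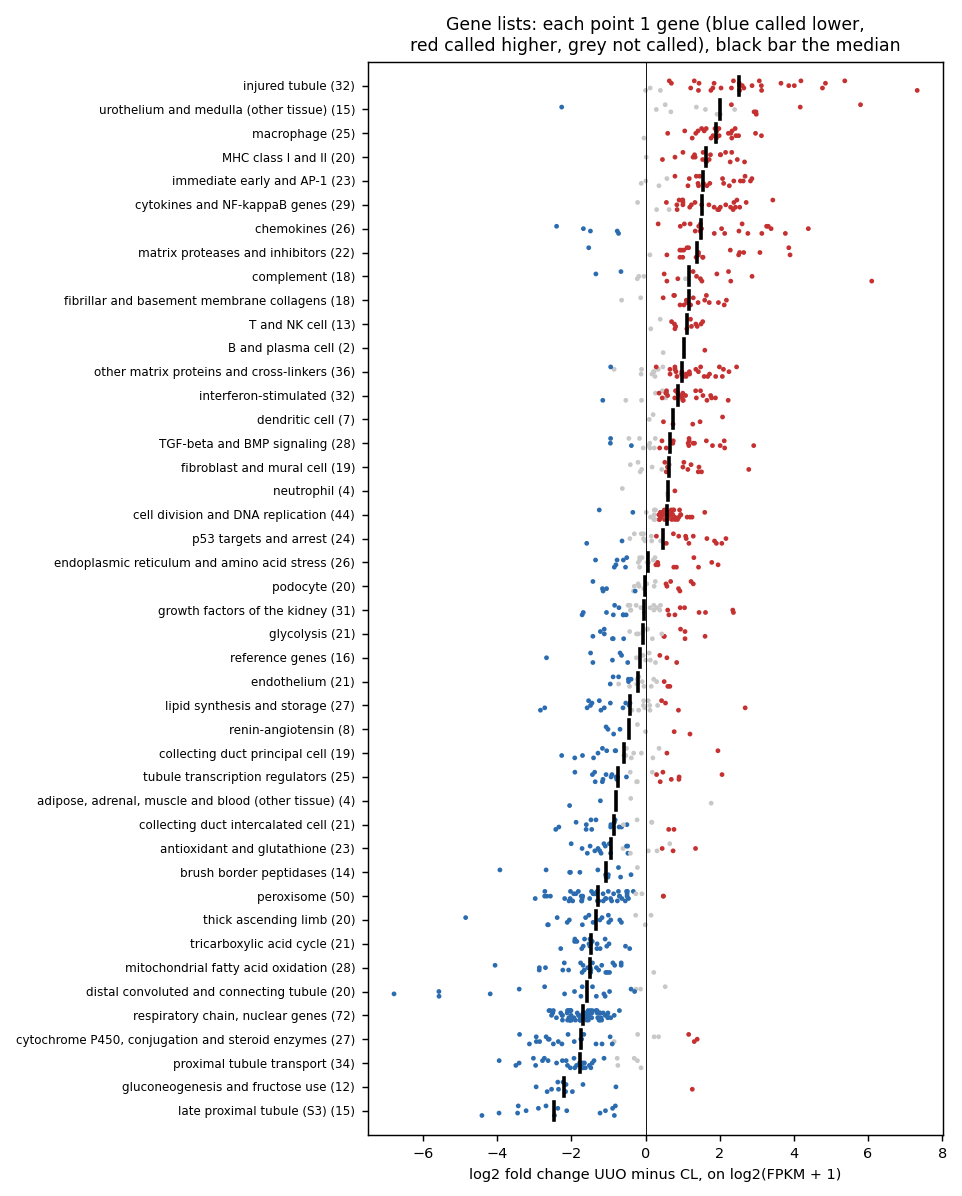
Log2 fold change, UUO minus CL, of each tested member of 44 gene lists (number tested in brackets), with blue, red and grey for genes called lower, higher and not called and a black bar at the list's median. Medians run from −2.46 for the late proximal tubule to 2.53 for injured tubule genes.

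Of 28 tested genes of mitochondrial fatty acid oxidation 27 fell (median −1.49). Acadm, the medium-chain dehydrogenase, had 1015, 633 and 853 FPKM in CL and 96.1, 102 and 199 FPKM in UUO libraries (log2 fold change −2.70, SE 0.30, adjusted p = 2.33e-04). Cpt1a, the enzyme at which fatty acid entry is controlled, had 80.8, 82.1 and 83.2 FPKM in CL and 39, 37.7 and 42.3 FPKM in UUO libraries (log2 fold change −1.03, SE 0.08, adjusted p = 5.69e-05). Of 50 tested peroxisome genes 46 fell (median −1.28), but 34 were called lower and 3 higher under scaling to equal totals. Ehhadh, an enzyme of peroxisomal oxidation (352, 261 and 313 FPKM in CL and 23.7, 33.6 and 68.6 FPKM in UUO libraries, −2.98), fell more than the biogenesis factors Pex14 (−0.33) and Pex19 (−0.64) in these values, without a test of the difference. The call of Pex14 is lost without CL replicate 1 (adjusted p = 0.115), CL replicate 3 (0.131), UUO replicate 1 (0.149) or UUO replicate 2 (0.0915). Pex26, of peroxisome biogenesis, rose (0.48). Acot12, an acyl-CoA thioesterase, had 73.8, 52.7 and 78.1 FPKM in CL and 9.98, 16.7 and 21.2 FPKM in UUO libraries (log2 fold change −2.07, SE 0.27, adjusted p = 4.48e-04).

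All 21 tested genes of the tricarboxylic acid cycle and all 72 nuclear genes of the respiratory chain fell (medians −1.48 and −1.69, against 33.4% of all genes). Within the cycle falls ran from Cs, citrate synthase (94.2, 86.9 and 90.1 FPKM in CL and 62.3, 62.8 and 76.3 FPKM in UUO libraries, −0.43), to Suclg1 of succinyl-CoA synthetase (339, 302 and 355 FPKM in CL and 54.3, 66.5 and 83 FPKM in UUO libraries, −2.29), and the sign of Cs turned under scaling to equal totals (0.18). Within the chain they ran from Atp5g2 of ATP synthase (614, 665 and 572 FPKM in CL and 373, 375 and 384 FPKM in UUO libraries, −0.71) to Ndufb11 of complex I (781, 765 and 889 FPKM in CL and 113, 124 and 165 FPKM in UUO libraries, −2.61). The summed FPKM of the chain was 87722 in CL and 24895 in UUO libraries on average. UUO replicate 3 was the highest UUO library for 21 of the 21 cycle genes and 62 of the 72 chain genes.

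Of 12 tested genes of gluconeogenesis and fructose use 11 fell, 8 of them by at least 4-fold (median −2.19). Pck1, the cytosolic enzyme that opens the pathway, had 484, 326 and 493 FPKM in CL and 82.1, 85.7 and 178 FPKM in UUO libraries (−1.98). Fbp1 had 598, 666 and 827 FPKM in CL and 85.1, 103 and 188 FPKM in UUO libraries (−2.54). G6pc, which releases free glucose, had 58.9, 66.2 and 129 FPKM in CL and 5.87, 7.73 and 17.8 FPKM in UUO libraries (−2.95). Pck2, the mitochondrial form of Pck1, rose (4.9, 6.19 and 5.89 FPKM in CL and 14.4, 15.7 and 14.6 FPKM in UUO libraries, 1.26). Of 21 tested glycolysis genes 7 fell and 6 rose, shares near those of all genes (33.4% and 32.0%). The median was −0.071, and 0.54 under scaling to equal totals, against 0.52 over all genes. Hk2, an inducible hexokinase, rose from low values (0.481, 0.473 and 0.218 FPKM in CL and 3.42, 3.48 and 2.77 FPKM in UUO libraries, 1.60), Pgk1 fell (505, 439 and 529 FPKM in CL and 173, 161 and 215 FPKM in UUO libraries, −1.42), and Hk1 (0.18) and Pkm (−0.19) were not called.

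In the list of lipid synthesis and storage 14 of 27 tested genes fell and 4 rose (median −0.42, and 0.11 under scaling to equal totals). Apoe, a lipid carrier that macrophages also make, rose most (138, 157 and 155 FPKM in CL and 1061, 829 and 1034 FPKM in UUO libraries, 2.69). Plin2, the coat protein of lipid droplets, had 55.2, 50.9 and 58.7 FPKM in CL and 92.3, 129.9 and 89.1 FPKM in UUO libraries (log2 fold change 0.89, SE 0.15, adjusted p = 0.00171). Lpl, lipoprotein lipase (525, 423 and 608 FPKM in CL and 54.4, 56.6 and 115 FPKM in UUO libraries, −2.84), and Cd36, a fatty acid uptake receptor (−2.72), fell. Acly, which makes cytosolic acetyl-CoA, fell (−0.61), and Acaca, which makes malonyl-CoA, was not called (2.27, 2.49 and 2.54 FPKM in CL and 2.61, 2.85 and 2.67 FPKM in UUO libraries, 0.11). Of 27 tested cytochrome P450, conjugation and steroid enzyme genes 20 fell and 3 rose (median −1.75). Akr1c21, an aldo-keto reductase, had 2302, 1655 and 2188 FPKM in CL and 130.3, 146 and 366 FPKM in UUO libraries (−3.40). The genes that rose were Cyp1b1 (1.16) and the enzymes of vitamin D activation and breakdown, Cyp27b1 (1.31) and Cyp24a1 (1.39). The groups overlap in Cyp24a1, and its call is lost without CL replicate 1 (adjusted p = 0.0729), CL replicate 2 (0.0706), UUO replicate 1 (0.0661) or UUO replicate 3 (0.0643).

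Matrix genes rose. Of 18 tested collagen genes 16 rose and none fell (median 1.16), and 2 of them passed 4-fold. Col1a1 had 17.2, 18.6 and 12.2 FPKM in CL and 62.5, 65.4 and 90.5 FPKM in UUO libraries (log2 fold change 2.12, SE 0.19, adjusted p = 1.04e-04). Col1a2 had 33.2, 29.5 and 26.2 FPKM in CL and 85.6, 82.6 and 107 FPKM in UUO libraries (log2 fold change 1.59, SE 0.13, adjusted p = 7.37e-05) and Col3a1, the other fibrillar collagen of scars, had 43, 44.7 and 30 FPKM in CL and 84.7, 87.9 and 154 FPKM in UUO libraries (log2 fold change 1.42, SE 0.25, adjusted p = 0.00214). The largest rise was that of Col12a1, which binds to collagen fibrils (0.65, 0.701 and 0.679 FPKM in CL and 6.4, 6.19 and 7.25 FPKM in UUO libraries, 2.18). UUO replicate 3 was the highest UUO library for 14 of the 18. Col27a1 had 6.05, 10.6 and 4.11 FPKM in CL and 3.72, 3.91 and 3.69 FPKM in UUO libraries (−0.65, adjusted p = 0.0653) and Col14a1 a log2 fold change of −0.13; neither was called, but with the replicate block Col27a1 was called lower (adjusted p = 0.0389).

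Of 36 other matrix proteins and cross-linkers tested 26 rose and 1 fell (median 0.97). Fn1, fibronectin, had 9.31, 5.88 and 6.68 FPKM in CL and 33.7, 29.7 and 36.9 FPKM in UUO libraries (log2 fold change 2.07, SE 0.16, adjusted p = 5.98e-05). Tnc, tenascin C, had 0.967, 1.11 and 0.546 FPKM in CL and 7.17, 6.99 and 9.59 FPKM in UUO libraries (2.25). Postn, periostin, had 2.68, 1.83 and 1.12 FPKM in CL and 5.14, 9.49 and 11.4 FPKM in UUO libraries (1.73). Lox, which cross-links collagen, had 1.71, 2.01 and 1.76 FPKM in CL and 13.2, 12.7 and 18.1 FPKM in UUO libraries (2.45). The member that fell was Fmod, fibromodulin (4.12, 2.8 and 3.33 FPKM in CL and 1.08, 0.985 and 1.87 FPKM in UUO libraries, −0.94). Small proteoglycans parted, since Bgn rose (1.01) while Dcn (0.17) and Lum (0.23) were not called.

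Of 19 tested fibroblast and mural cell genes 12 rose and none fell (median 0.63). Acta2, smooth muscle actin, which marks myofibroblasts, had 18.9, 21.4 and 10.6 FPKM in CL and 38.1, 50.8 and 48.2 FPKM in UUO libraries (log2 fold change 1.42, SE 0.25, adjusted p = 0.00179). Tagln had 45.9, 51.8 and 43.9 FPKM in CL and 122, 144 and 124 FPKM in UUO libraries (1.44). Pdgfrb, the receptor of mural cells and fibroblasts, had 8.1, 8.21 and 8.33 FPKM in CL and 16.7, 17.3 and 24.8 FPKM in UUO libraries (1.14). Thy1, which fibroblasts share with T cells, rose most (5.06, 5.33 and 2.79 FPKM in CL and 38.4, 29.9 and 38 FPKM in UUO libraries, 2.78). Markers of resident fibroblasts and pericytes Gas1 (−0.41), Pi16 (−0.11), Rgs5 (−0.15) and Myh11 of smooth muscle (−0.20) were not called. With the replicate block Gas1 was called lower (adjusted p = 0.0485).

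In the TGF-beta and BMP list 17 of 28 tested genes rose and 3 fell (median 0.65). Of the ligands, Tgfb1 had 4.65, 5.56 and 8.58 FPKM in CL and 27.4, 27.2 and 36.5 FPKM in UUO libraries (log2 fold change 2.13, SE 0.21, adjusted p = 1.40e-04), and Tgfb2 (1.18) and Tgfb3 (1.17) rose from low values, while Bmp7, which opposes TGF-beta, fell (13.4, 10.5 and 12.1 FPKM in CL and 5.49, 5.17 and 6.54 FPKM in UUO libraries, −0.95). Of the receptors, Tgfbr2 rose (14.3, 14.5 and 18.2 FPKM in CL and 36.1, 33.4 and 38 FPKM in UUO libraries, 1.15) and Tgfbr1 was not called (15, 15.2 and 12.9 FPKM in CL and 16.9, 15.9 and 13.1 FPKM in UUO libraries, 0.087). The target Ctgf rose by 0.74, a call that is lost without CL replicate 1 (adjusted p = 0.131), CL replicate 2 (0.0995), UUO replicate 1 (0.107) or UUO replicate 2 (0.124), and with the replicate block (adjusted p = 0.0631). Of 22 tested matrix proteases and inhibitors 20 rose and 1 fell (median 1.39). Timp1 had 1.79, 7.54 and 1.2 FPKM in CL and 53.2, 67.7 and 45.5 FPKM in UUO libraries (log2 fold change 3.90, SE 0.47, adjusted p = 3.32e-04). Mmp14 had 3.25, 5.16 and 4.42 FPKM in CL and 46, 37.6 and 46.7 FPKM in UUO libraries (log2 fold change 3.08, SE 0.15, adjusted p = 2.22e-05). Mmp2 had 2.12, 1.24 and 1.86 FPKM in CL and 9.56, 4.36 and 7.7 FPKM in UUO libraries (1.54), and Timp3, an inhibitor held in the matrix, fell (385, 459.7 and 491 FPKM in CL and 127, 153 and 183 FPKM in UUO libraries, −1.53).

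Of 25 tested macrophage genes 24 rose and none fell, 9 of them by at least 4-fold (median 1.91). Lyz2, lysozyme of myeloid cells, rose most (34, 24.9 and 31 FPKM in CL and 285, 227 and 293 FPKM in UUO libraries, log2 fold change 3.13, SE 0.15, adjusted p = 1.95e-05). Adgre1, the F4/80 antigen, had 3.47, 2.09 and 2.57 FPKM in CL and 13.5, 9.58 and 11.6 FPKM in UUO libraries (1.77). Cd68, of lysosomes, had 6.63, 4.32 and 6.41 FPKM in CL and 19.1, 19.7 and 30.6 FPKM in UUO libraries (1.82). Csf1r, the receptor on which macrophages depend, rose less, with 17.3, 10.6 and 14.2 FPKM in CL and 21.7, 16.3 and 27.3 FPKM in UUO libraries (0.60), and its groups overlap. Its call is lost without CL replicate 2 (adjusted p = 0.128), CL replicate 3 (0.086), UUO replicate 1 (0.105) or UUO replicate 3 (0.125). Ly6c2, of inflammatory monocytes, was not called (10.1, 6.47 and 6.43 FPKM in CL and 6.66, 8.52 and 6.68 FPKM in UUO libraries, −0.045), while their chemokine receptor Ccr2 rose (2.33).

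Other leukocyte lists had few tested members. Genes near or under 1 FPKM in CL could be tested through their UUO libraries alone. The shares that rose in these lists are therefore no independent support for a rise. Of 13 tested T and NK cell genes 11 rose (median 1.11), among them Cd3e (0.991, 1.28 and 1.06 FPKM in CL and 3.89, 3.19 and 3.61 FPKM in UUO libraries, 1.11) and Cd4 (1.54), and Cd8a (0.39) and Gzma (0.14) were not called. Of 7 dendritic cell genes 5 rose, with Itgax at 1, 1.21 and 0.663 FPKM in CL and 3.33, 4.14 and 3.66 FPKM in UUO libraries (1.27) and Clec9a not called (0.10). Of 4 neutrophil genes 1 rose, Csf3r (0.445, 1.23 and 0.343 FPKM in CL and 1.5, 2.19 and 1.8 FPKM in UUO libraries, 0.79). S100a8 had 9.19, 44.5 and 6.46 FPKM in CL and 20.3, 38.5 and 13.3 FPKM in UUO libraries (adjusted p = 0.459) and S100a9 6.35, 20.7 and 9.09 FPKM in CL and 14.7, 34.3 and 9.02 FPKM in UUO libraries (adjusted p = 0.349, 0.0491 with the replicate block), and mouse 2 was the highest of the 3 mice on each side. Of 2 B and plasma cell genes Jchain rose (3.43, 0.821 and 2.56 FPKM in CL and 9.27, 7.32 and 8.33 FPKM in UUO libraries, 1.60) and Cd79b was not called (0.47).

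Genes of antigen presentation rose. Of 20 tested MHC class I and II genes 19 rose (median 1.64). H2-Ab1, a class II chain, had 77.4, 79.4 and 74.6 FPKM in CL and 474, 507 and 507 FPKM in UUO libraries (log2 fold change 2.67, SE 0.08, adjusted p = 6.91e-06). Cd74, the invariant chain, had 183, 203 and 203 FPKM in CL and 1042, 1128 and 1112 FPKM in UUO libraries (log2 fold change 2.47, SE 0.09, adjusted p = 1.42e-05). B2m, the light chain of class I, had 678, 776 and 696 FPKM in CL and 1284, 1411 and 1054 FPKM in UUO libraries (0.79). The differences among the 3 genes were not tested. H2-T22 was not called (10.7, 9.19 and 15.4 FPKM in CL and 10.6, 12 and 12.3 FPKM in UUO libraries).

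Of 26 tested chemokine genes 21 rose and 5 fell (median 1.50). Cxcl1, which draws neutrophils, had 0.727, 6.37 and 0.097 FPKM in CL and 57.9, 62.3 and 33.5 FPKM in UUO libraries (log2 fold change 4.39, SE 0.65, adjusted p = 8.69e-04). Ccl2, which draws monocytes, had 3.5, 3.71 and 2.53 FPKM in CL and 66.4, 57.5 and 47.1 FPKM in UUO libraries (log2 fold change 3.77, SE 0.16, adjusted p = 1.91e-05). Cxcl10, an interferon-induced ligand of T cells, had 7.9, 6.56 and 4.53 FPKM in CL and 58.6, 39.4 and 28 FPKM in UUO libraries (2.52). Cx3cl1, fractalkine, had 20.1, 31.6 and 23.7 FPKM in CL and 55.6, 71.7 and 94.2 FPKM in UUO libraries (1.51). The 5 that fell were the homeostatic chemokines Ccl21a (16.3, 14.7 and 18.3 FPKM in CL and 3.9, 1.94 and 1.47 FPKM in UUO libraries, −2.40), Cxcl12 (−1.68) and Ccl19 (−0.77), and the epithelial Ccl28 (−1.49) and Ccl25 (−0.73). The call of Ccl28 is lost without UUO replicate 2 (adjusted p = 0.0564). Ccl21a is one of several near-identical copies in the mouse genome, and how fragments were shared among them is not known here.

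Of 18 tested complement genes 12 rose and 2 fell (median 1.18). C3 stood far above the others in the size of its rise. Cfb, factor B of the alternative pathway, had 172, 157 and 153 FPKM in CL and 124, 161 and 142 FPKM in UUO libraries (−0.18, adjusted p = 0.2). C4b had 4.09, 7.37 and 1.4 FPKM in CL and 6.21, 8.79 and 12.6 FPKM in UUO libraries (1.08, adjusted p = 0.0655). The C1q subunit gene C1qa (1.92), Cfi (2.24) and properdin, Cfp (2.30), rose, and the cell surface inhibitors Cd55 (11.9, 9.82 and 11.6 FPKM in CL and 2.83, 3.72 and 4.97 FPKM in UUO libraries, −1.34) and Cd59a (−0.66) fell.

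Of 32 tested interferon-stimulated genes 26 rose and 1 fell (median 0.88), and 1 passed 4-fold. Gbp2, a guanylate-binding protein, rose most (9.26, 7.78 and 7.34 FPKM in CL and 48.6, 56.2 and 26.2 FPKM in UUO libraries, 2.23). Isg15 had 15.2, 14.1 and 19.6 FPKM in CL and 43.7, 46.6 and 39.7 FPKM in UUO libraries (1.37) and Irf7 14, 17.5 and 24.4 FPKM in CL and 30.5, 34.6 and 38.8 FPKM in UUO libraries (0.89). Ifit1 was not called (12.5, 12 and 15.3 FPKM in CL and 12.8, 12.2 and 11.5 FPKM in UUO libraries, −0.11), and Rsad2 fell (16.7, 14.7 and 23.9 FPKM in CL and 7.47, 7.24 and 7.99 FPKM in UUO libraries, log2 fold change −1.16, SE 0.17, adjusted p = 7.34e-04). Of 29 tested cytokine and NF-kappaB genes 26 rose and none fell (median 1.51). Il1rn, the antagonist of the interleukin 1 receptor, rose most (0.034, 0.253 and 0.099 FPKM in CL and 9.19, 10.7 and 14.1 FPKM in UUO libraries, 3.43), while Il1b (1.36, 2.82 and 0.839 FPKM in CL and 4, 3.16 and 1.98 FPKM in UUO libraries, 0.63, adjusted p = 0.0931, and 0.0303 with the replicate block) and Il18 (−0.22) were not called. The factor genes Nfkb2 (2.71), Relb (2.46) and Nfkb1 (1.71) rose.

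Of 23 tested immediate early and AP-1 genes 19 rose and none fell (median 1.56). Egr1 had 1.34, 4.83 and 2.42 FPKM in CL and 31.4, 19.7 and 23.9 FPKM in UUO libraries (log2 fold change 2.83, SE 0.32, adjusted p = 2.68e-04). Jun had 10.5, 18.9 and 9.78 FPKM in CL and 69.5, 56 and 47.8 FPKM in UUO libraries (log2 fold change 2.11, SE 0.25, adjusted p = 2.98e-04). Fos had 0.361, 2.6 and 0.92 FPKM in CL and 5.65, 4.05 and 4.46 FPKM in UUO libraries (1.43), and Myc rose most (1.31, 1.94 and 1.29 FPKM in CL and 16.4, 20.6 and 15.1 FPKM in UUO libraries, 2.87). In CL kidneys replicate 2 was the highest library for 20 of the 23 genes. Dusp1, a phosphatase of the same early response, was not called (17.8, 29.8 and 21.2 FPKM in CL and 21.1, 23.6 and 17.4 FPKM in UUO libraries, −0.12).

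Of 44 tested genes of cell division and DNA replication 35 rose and 2 fell, but none of the rises reached 4-fold (median 0.59). Top2a had 3.11, 2.68 and 3.13 FPKM in CL and 7.3, 6.11 and 5.9 FPKM in UUO libraries (log2 fold change 0.90, SE 0.11, adjusted p = 2.87e-04). Mki67 had 4.47, 5.41 and 4.14 FPKM in CL and 6.61, 6.2 and 6.18 FPKM in UUO libraries (0.38), a call that is lost without UUO replicate 1 (adjusted p = 0.0555). Uhrf1, which copies DNA methylation, rose most (2.85, 3.14 and 2.31 FPKM in CL and 10.3, 10.3 and 10.4 FPKM in UUO libraries, 1.60). Pcna was not called (71.8, 65.8 and 55.2 FPKM in CL and 76.8, 76.1 and 72.8 FPKM in UUO libraries, 0.23, adjusted p = 0.0981), although its groups did not overlap. The fall was led by Ccnd1, cyclin D1 (114, 123 and 89.7 FPKM in CL and 46.1, 46.2 and 42.5 FPKM in UUO libraries, log2 fold change −1.25, SE 0.13, adjusted p = 1.61e-04). Among 24 tested p53 targets and arrest genes 13 rose and 2 fell (median 0.48). Cdkn1a, the inhibitor p21, had 5.64, 14.5 and 7.97 FPKM in CL and 39.1, 41.1 and 28 FPKM in UUO libraries (log2 fold change 1.91, SE 0.30, adjusted p = 0.00116). Pmaip1, of cell death, had 4.04, 7.24 and 4.34 FPKM in CL and 30.7, 25.9 and 22.5 FPKM in UUO libraries (2.17), while Mdm2 was not called (−0.016) and Ccng1 fell (122, 125 and 138 FPKM in CL and 38.2, 45.9 and 42.2 FPKM in UUO libraries, −1.59).

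Of 26 tested genes of endoplasmic reticulum and amino acid stress 9 rose and 7 fell (median 0.06). These were 34.6% and 26.9%, near the 32.0% and 33.4% of all genes. The chaperone gene Hspa5 fell (326, 302 and 327 FPKM in CL and 244, 227 and 187 FPKM in UUO libraries, −0.54, and 0.074 under scaling to equal totals). Of its genes of amino acid synthesis, Asns, asparagine synthetase, rose (2.99, 4.63 and 2.73 FPKM in CL and 14, 16.6 and 17.5 FPKM in UUO libraries, log2 fold change 1.96, SE 0.17, adjusted p = 8.70e-05), as did Phgdh of serine synthesis (1.79), while Shmt2, which turns serine into glycine, fell (57.8, 49.4 and 84.4 FPKM in CL and 18.7, 23.4 and 30.6 FPKM in UUO libraries, −1.35). Atf4, the factor that drives such genes, rose by little (68, 80.4 and 68.7 FPKM in CL and 86.7, 90.5 and 94.9 FPKM in UUO libraries, 0.32), a call that is lost without CL replicate 1 (adjusted p = 0.0605), CL replicate 3 (0.0534), UUO replicate 2 (0.058) or UUO replicate 3 (0.0506), and Ddit3 was not called (0.33). Of 23 tested antioxidant and glutathione genes 15 fell and 3 rose (median −0.94). Gpx3, the plasma glutathione peroxidase that the proximal tubule makes, had 8614, 11904 and 14224 FPKM in CL and 3941, 4298 and 5978 FPKM in UUO libraries (−1.28), Sod2 fell most (123, 122 and 133 FPKM in CL and 25.8, 29.9 and 37.3 FPKM in UUO libraries, −2.01), Nqo1 had 54.5, 48.2 and 41.4 FPKM in CL and 8.78, 20.3 and 20.1 FPKM in UUO libraries (−1.57), and Hmox1 (22.1, 28 and 19.4 FPKM in CL and 33.5, 40.2 and 44.1 FPKM in UUO libraries, 0.74) and Txnip (79.6, 50.7 and 94.5 FPKM in CL and 219, 151 and 195 FPKM in UUO libraries, 1.35) rose.

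Of 31 tested growth factor genes of the kidney 9 rose and 9 fell (median −0.04), shares near those of all genes (32.0% and 33.4%). Under scaling to equal totals 15 rose and 4 fell (median 0.45). Pdgfb rose most (6.14, 7.71 and 8.89 FPKM in CL and 45.7, 41.1 and 42.2 FPKM in UUO libraries, log2 fold change 2.37, SE 0.13, adjusted p = 2.68e-05), Fgf1 fell most (99.9, 54.5 and 77.6 FPKM in CL and 18.2, 17 and 35.3 FPKM in UUO libraries, −1.71), and Vegfa had 39, 40.9 and 32.3 FPKM in CL and 22.3, 24.7 and 25.6 FPKM in UUO libraries (−0.60, and −0.0037 under scaling to equal totals). The EGF receptor ligands Areg (2.35) and Tgfa (0.63) rose, in contrast to Egf itself, and Hbegf (0.30) was called only with the replicate block (adjusted p = 0.0798 without it and 0.028 with it). Of 16 tested genes often used as references for quantitative PCR 3 rose and 7 fell (18.75% and 43.75%, against 32.0% and 33.4% of all genes). Under scaling to equal totals 9 of them rose and 3 fell. Actb had 638, 826 and 628 FPKM in CL and 1239, 1225 and 1251 FPKM in UUO libraries (0.84). Gapdh had 1059, 1071 and 1457 FPKM in CL and 528, 583 and 833 FPKM in UUO libraries (−0.89) and Tfrc fell most (59.7, 38.5 and 69.9 FPKM in CL and 6.74, 7.07 and 9.48 FPKM in UUO libraries, −2.67), while Gusb, Tbp and Ywhaz had log2 fold changes of 0.00063, −0.066 and 0.13 and were not called.

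Markers of tissue beside the cortex were measured in the same libraries. Uroplakins, the membrane proteins of the urothelium that lines the renal pelvis, were high in CL replicate 2 and in UUO replicates 1 and 2. Upk1b had 0.194, 6.05 and 0.74 FPKM in CL and 16.9, 20.4 and 1.53 FPKM in UUO libraries. Upk2 had 0.812, 7.63 and 0.757 FPKM in CL and 14.6, 17.7 and 1.71 FPKM in UUO libraries and Upk3a had 1.45, 12.2 and 1.45 FPKM in CL and 10.1, 12.3 and 1.21 FPKM in UUO libraries, and none of them was called (adjusted p = 0.0949, 0.14 and 0.506). With the replicate block the adjusted p was 0.0304 for Upk1b, 0.0266 for Upk2 and 0.239 for Upk3a. Krt5, of basal urothelium, had 0.457, 3.92 and 0.219 FPKM in CL and 22.8, 42 and 3.24 FPKM in UUO libraries (2.99, adjusted p = 0.0199). Psca had 2.51, 31.5 and 2.44 FPKM in CL and 48.8, 55.1 and 6.74 FPKM in UUO libraries (adjusted p = 0.146, and 0.0311 with the replicate block). The call of Krt5 is lost without CL replicate 1 (adjusted p = 0.0681), CL replicate 3 (0.0656), UUO replicate 1 (0.0633) or UUO replicate 2 (0.0609). Of 15 tested genes of the urothelium and medulla list 6 rose and 1 fell (median 2.02), and their summed FPKM was 61.2, 149.7 and 37 in CL and 538, 630.3 and 325 in UUO libraries. With the replicate block 11 rose, and without CL replicate 2 and UUO replicate 3 the median was 3.76. Sprr2f (0, 1.31 and 0.179 FPKM in CL and 104, 114 and 37.9 FPKM in UUO libraries) and Krt20 rose also in mouse 3. In that mouse Upk1b, Upk2 and Upk3a had 0.74, 0.757 and 1.45 FPKM in the CL and 1.53, 1.71 and 1.21 FPKM in the UUO library. Krt5 (0.219 and 3.24 FPKM) and Psca (2.44 and 6.74 FPKM) were higher in its UUO than in its CL library. The part of urothelium in the rises of Sprr2f, Krt20 and other keratins was not tested further. Marker genes of fat, adrenal, muscle and nerve were mostly under 1 FPKM, with 4 of 18 on that list tested, and Hba-a1 of red cells had 62.5, 632 and 219.8 FPKM in CL and 65.5, 34.7 and 51.5 FPKM in UUO libraries, a fall that is lost without CL replicate 2 (adjusted p = 0.0792), CL replicate 3 (0.0974), UUO replicate 1 (0.0657), UUO replicate 2 (0.119) or UUO replicate 3 (0.076), and with the replicate block (adjusted p = 0.0538).

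**Figure D4:**
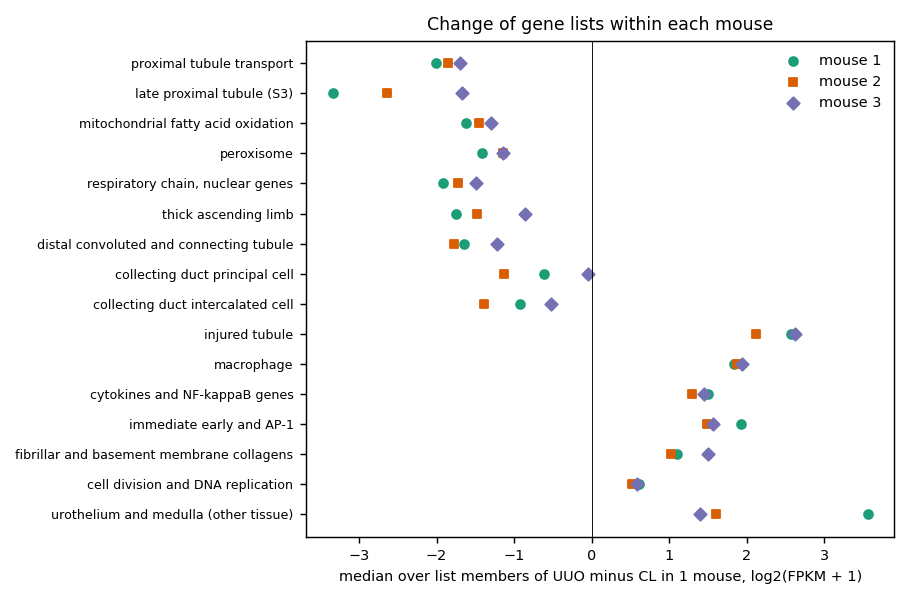
Median over the members of 16 gene lists of the difference UUO minus CL on log2(FPKM + 1), with 1 mark for each mouse. The marks lie close together for macrophage and cell division lists, and spread most for the late proximal tubule (−3.34, −2.64 and −1.67) and the urothelium list (3.56, 1.60 and 1.40).

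Over the 8412 called genes, the median change in the direction of the call was 0.77 in mouse 1, 0.68 in mouse 2 and 0.71 in mouse 3. Some of the widest ranges within a group followed the mouse on both sides. Fabp1, the liver-type fatty acid binding protein, had 199.7, 5.39 and 41.4 FPKM in CL and 22.6, 0.187 and 9.04 FPKM in UUO libraries: mouse 1 was highest and mouse 2 lowest in both kidneys, and each UUO kidney was lower than its partner (log2 fold change −2.53, SE 1.44, adjusted p = 0.157, and 2.84e-04 with the replicate block). Selenbp2, a selenium-binding protein, had 14.2, 11.2 and 270.4 FPKM in CL and 3.91, 4.81 and 42.3 FPKM in UUO libraries, with mouse 3 highest on both sides (adjusted p = 0.263, and 0.00331 with the block). Others were high in a single library among the CL kidneys. Cbr2, a carbonyl reductase, had 1.6, 216 and 1.77 FPKM in CL and 7.84, 12.3 and 3.96 FPKM in UUO libraries. Fgg, a fibrinogen chain, had 14.6, 95.3 and 7.25 FPKM in CL and 48.5, 104 and 81.4 FPKM in UUO libraries (adjusted p = 0.107, and 0.0411 with the replicate block). CL replicate 2 was the high CL library in both, and UUO replicate 2 was the highest UUO library in both. All UUO values of Fgg lay above those of CL replicates 1 and 3.

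UUO replicate 3 kept more of several proximal tubule transcripts than the other obstructed kidneys. Serpina1d, a secreted protease inhibitor, had 263, 112 and 167 FPKM in CL and 4.81, 10.2 and 60.7 FPKM in UUO libraries (−3.43, adjusted p = 0.00729). UUO replicate 3 was the highest UUO library for 29 of 34 proximal transport genes, 27 of 28 genes of fatty acid oxidation and 39 of 50 peroxisome genes, and also for 27 of 36 matrix genes and 14 of 25 macrophage genes, against 43.8% of all genes. With that library and CL replicate 2 both left out, 7826 genes were called, 3824 higher and 4002 lower.

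**Figure D5:**
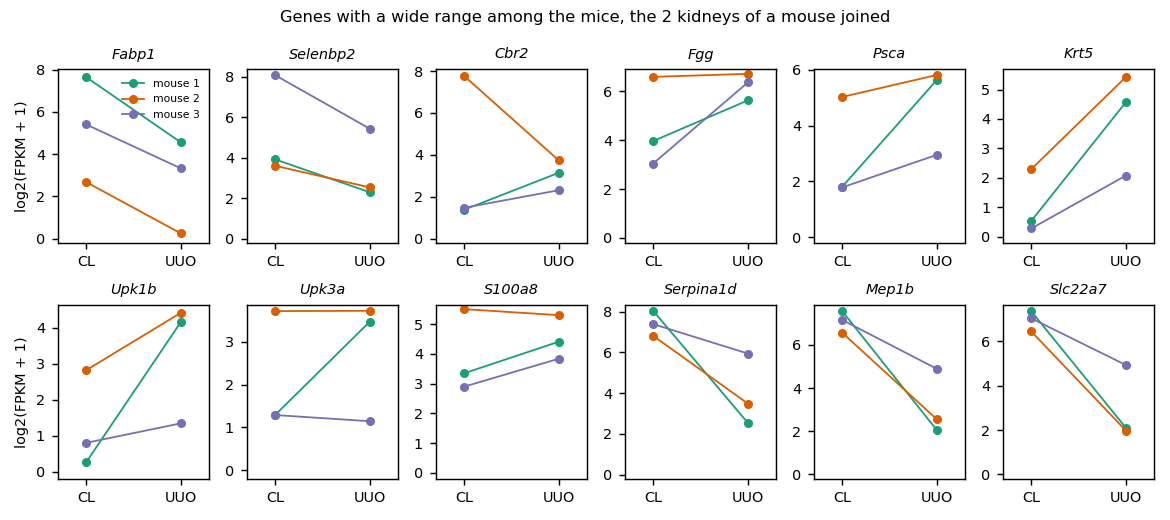
log2(FPKM + 1) of 12 genes with a wide range among mice, in CL and UUO libraries, with the kidneys of each mouse joined by a line. Fabp1 keeps the order of the mice on both sides, Selenbp2 is highest in mouse 3 on both, CL of mouse 2 is high for Cbr2, Psca and the uroplakins, and UUO of mouse 3 is high for Serpina1d, Mep1b and Slc22a7.

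The wild-type change was set against that in Acot12-/- mice, which are other animals. The interaction of genotype and obstruction was called for 14 of 12872 genes (0.109%). Among list members these were Fabp4, a fatty acid binding protein of capillary endothelium and fat, Prelp, a matrix proteoglycan, and Tie1, an endothelial receptor. Fabp4 had 279, 258 and 307 FPKM in CL and 209.6, 207 and 167 FPKM in UUO libraries in wild-type mice. Its log2 fold change was −0.54 in wild-type (0.081 under scaling to equal totals) and 1.76 in Acot12-/- mice. That of Prelp was −0.11 and 1.22, and that of Tie1 −0.043 and 1.33. With any single wild-type library left out no gene was called by limma for the interaction, although 987 to 1231 had an unadjusted p under 0.05. For the other genes a difference between genotypes was not called, which does not show that they responded alike.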

How the data were processed

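RNA was taken from kidney cortex with Trizol per the labels (RNAiso Plus in the published methods), and directional libraries were made from total RNA. The authors deposited 1 table per library with a value per gene symbol. The unit is not named in the deposited tables: low values fall on whole multiples of a step that shrinks with transcript length, so the deposited values were read as FPKM. The submitters' processing notes name mm10 and edgeR. Aligner, annotation and estimator are not given in the sources used here, nor whether counting used strand, so that overlapping and antisense genes are uncertain. Genes listed at 0 in a library beside at least 10 FPKM in another library of the same group were treated as failed estimates. On this ground 45 genes were left out, of which 12 would have been tested.

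Genes with at least 1 FPKM in at least 3 of the 6 wild-type libraries were kept (12872 of 23183), and log2(FPKM + 1) was fitted with limma 3.58.1 in R 4.3.3 (lmFit, eBayes with a variance trend, two-sided, no block). A gene could pass this filter through the libraries of a single group. P-values were adjusted by Benjamini and Hochberg over all genes tested, and genes were called at an adjusted p under 0.05. The interaction came from a fit of all 12 libraries in 4 groups. The test was checked on simulated data. Depth was estimated from the steps and transcript lengths and covers counting error only.

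Replicate numbers were taken to pair the kidneys of a mouse, which the labels do not state. Residuals of libraries with the same number correlated (0.142, 0.367 and 0.347, against at most 0.150 between different numbers). The 0.150 was that of UUO replicate 1 with CL replicate 2, so the residuals did not single out the pair of mouse 1. Nothing says how mice were batched.

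The gene lists (44, with 1109 of 1119 symbols matched) and their members were chosen with earlier results of these data known. Named were the first 3 genes of each list, the largest rise and fall in each list, the 15 largest rises and falls over all genes with a mean of at least 5 FPKM and no overlap between groups, the most abundant genes of each group, and genes far apart among replicates, besides examples picked after their values were seen. Gene positions are from GENCODE for GRCm38 and promoters from RefSeq for GRCm38.p6. Alternatives changed the pseudocount (0.1), the filter, the scaling, the samples fitted, the block and the variance trend. Results for some list members and for 1 motif sought are not reported here.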

Additional observations from a re-analysis of the deposited data

Results flagged for a closer look

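For 3 list members the change with obstruction differed between wild-type and Acot12-/- mice by a test of the difference itself, the interaction in a limma fit of all 12 libraries. The interaction was 2.30 on the log2 scale for Fabp4 (adjusted p = 0.0276), 1.33 for Prelp (adjusted p = 0.0451) and 1.38 for Tie1 (adjusted p = 0.0276). In each the change was more positive in Acot12-/- mice. Whether this lay in the UUO or in the CL kidneys of those mice was not examined here. None of the 3 was called for the interaction when any single wild-type library was left out.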

How the results depend on the processing

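The count of 8412 called genes stayed between 6127 (fit of all 12 libraries) and 9846 (equal totals) under the other pseudocount, filters, scalings, variance settings and fits, and between 7364 and 8097 with a library left out. A fold change of at least 2 as a further condition left 2628 genes, 1142 higher and 1486 lower. With a filter of 5 FPKM 2686 genes were called higher and 3778 lower, so that 41.6% of the calls were rises. Scaling to equal totals gave 8059 higher and 1787 lower. With the replicate block, which pairs the kidneys of a mouse, 8777 genes were called, 4298 higher and 4479 lower. The interaction of genotype and obstruction was called for 14 genes, for 20 with a pseudocount of 0.1, for 84 with the replicate block and for 0 without any one of the wild-type libraries. The block, the pseudocount and the left-out libraries for the interaction, and the joint removal of CL replicate 2 and UUO replicate 3, were chosen after seeing the data.

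Medians of 7 of the 44 gene lists changed sign under equal totals. Of the 264 genes named, 17 changed sign under equal totals and were called on the deposited scale, on the equal-total scale or on both. Sign changes of genes called on neither scale are not counted here. The log2 fold changes of the 17 under equal totals were 0.60 for Agt, 0.43 for Cfb, 0.43 for Col14a1, 0.18 for Cs, 0.081 for Fabp4, 0.074 for Hspa5, 0.46 for Ifit1, 0.61 for Ltbr, 0.50 for Ly6c2, 0.57 for Mdm2, 0.26 for Pex14, 0.42 for Pkm, 0.42 for Podxl, 0.42 for Prelp, 0.40 for Rgs5, 0.49 for Tbp and 0.51 for Tie1, all within the shift of the median of all genes or close to it. The log2 fold change of Cbr2 ranged from −1.55 without CL replicate 1 to 1.64 without CL replicate 2 and came to 2.01 with UUO replicate 3 also left out, which removes the library with its high CL value. With the replicate block 3 of the named genes lost their call and 14 gained one. The 6 libraries limit the precision of every value. With the depth given, changes from or to values under 1 FPKM are less certain. Genes that did not reach 1 FPKM in at least 3 of the 6 libraries were tested, if at all, only in the alternative without that filter.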
